A study of Mus musculus with 3 samples.

Results

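CpG island promoters that belong to a single gene were examined for binding of Nkx2.2 in oligodendrocyte progenitor cells of the mouse (OPCs) and in the oligodendrocytes (OLs) that form from them. They were taken from the deposited table of Nkx2.2 regions as the regions that overlap at least 1 CpG island and have exactly 1 gene start within 1000 bp of their middle. This rule uses place alone and no measured value. It gave 4696 of the 37271 regions (12.6%), at the starts of 4473 genes. A region with starts of several genes within that distance, as in a divergent pair, is left out by the rule. Each region can thus be read against 1 nearby gene start, although 1913 of the 4696 also list other genes farther away.

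The series holds 3 libraries from C57BL/6 mice, whose cells were selected from the cortex at postnatal day 7 through their PDGF receptor alpha and cultured without serum in the presence of PDGF-AA, NT-3 and CNTF. All cells were isolated and cultured at the same time. The OPC library came from cells kept in PDGF-AA at 10 ng/mL, and the OL library from cells held for 48 h without PDGF-AA and with the thyroid hormone T3 at 40 ng/mL. Chromatin was taken with a monoclonal antibody to Nkx2.2, and the input library has no column in the table and was not analysed here. How many mice were pooled is not given in the sources used here. With 1 library per state there are no replicates and no test between states, so every difference below lies between 2 libraries. A region is called in a library where the authors found an interval in it, and a region is in the table only if it was called in at least 1 of the 2 libraries. Regions called in a single library are therefore mostly, but not always, lower in the other: 34 of the 2869 called in OL only and 13 of the 274 called in OPC only had more signal in the library that did not call them. Signal is the deposited average over the region, in the authors' units; the read depth behind it is unknown, and whether the libraries were scaled to each other is not given in the sources used here.

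CpG islands are stretches of DNA rich in G, C and unmethylated CpG dinucleotides, and most genes that are active in many tissues start in one. They usually lack a TATA box, start transcription over a broad zone, and keep an open chromatin that many factors reach. Genes that are switched on in few cell types start more often outside islands, although many developmental regulators have island promoters too. Nkx2.2 is an NK2-class homeodomain protein that marks the oligodendrocyte lineage and takes part in the step from dividing progenitor to myelinating cell; it can repress genes through Groucho-type corepressors. Its class of homeodomain reads a short core, AAGTG.

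The DNA in front of 9 of these genes is shown first, 250 bases up to the start site that RefSeq gives (build GRCm38.p6), 5′ to 3′ on the strand of the gene, with every CpG in capitals. Ccdc12, Yipf4, Map3k3 and Xab2 are shown because they carried some of the strongest signal in both libraries. Fyn, a Src family kinase gene needed for myelination, is the lineage gene shown by rule; Rap2a, also picked, is left out because its region lies farther upstream. Map3k3 and Xab2 were added after their values were seen, as were Pdgfra, Olig2, Nkx6-2 and Cnp1 (now Cnp), which show the range from OPC-weighted to OL-weighted promoters. RefSeq starts can differ from the starts in the deposited table, whose regions are on mm9.
Ccdc12: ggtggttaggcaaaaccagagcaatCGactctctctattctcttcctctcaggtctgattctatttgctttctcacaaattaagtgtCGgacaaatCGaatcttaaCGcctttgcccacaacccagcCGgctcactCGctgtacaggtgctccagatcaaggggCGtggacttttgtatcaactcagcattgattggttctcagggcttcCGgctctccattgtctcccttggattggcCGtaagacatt
Yipf4: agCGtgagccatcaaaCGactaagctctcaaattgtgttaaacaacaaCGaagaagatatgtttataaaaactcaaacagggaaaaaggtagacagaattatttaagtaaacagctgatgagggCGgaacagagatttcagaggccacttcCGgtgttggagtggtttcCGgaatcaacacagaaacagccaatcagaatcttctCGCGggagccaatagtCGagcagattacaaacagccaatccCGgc
Map3k3: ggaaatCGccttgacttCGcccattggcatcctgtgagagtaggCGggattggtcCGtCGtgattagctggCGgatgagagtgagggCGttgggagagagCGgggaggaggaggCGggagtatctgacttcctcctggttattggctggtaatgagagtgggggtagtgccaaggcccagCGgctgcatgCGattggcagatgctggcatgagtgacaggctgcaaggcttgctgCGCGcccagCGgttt
Xab2: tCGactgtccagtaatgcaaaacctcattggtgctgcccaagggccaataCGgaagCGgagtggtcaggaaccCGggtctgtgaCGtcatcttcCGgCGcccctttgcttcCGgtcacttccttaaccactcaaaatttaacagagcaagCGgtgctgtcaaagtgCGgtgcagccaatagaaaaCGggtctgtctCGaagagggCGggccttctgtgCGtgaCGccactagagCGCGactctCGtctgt
Fyn: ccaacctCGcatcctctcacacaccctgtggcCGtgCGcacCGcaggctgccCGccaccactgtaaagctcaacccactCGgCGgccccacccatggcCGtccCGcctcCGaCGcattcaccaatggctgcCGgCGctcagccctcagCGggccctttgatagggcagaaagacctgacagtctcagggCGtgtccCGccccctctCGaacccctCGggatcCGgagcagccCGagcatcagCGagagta
Pdgfra: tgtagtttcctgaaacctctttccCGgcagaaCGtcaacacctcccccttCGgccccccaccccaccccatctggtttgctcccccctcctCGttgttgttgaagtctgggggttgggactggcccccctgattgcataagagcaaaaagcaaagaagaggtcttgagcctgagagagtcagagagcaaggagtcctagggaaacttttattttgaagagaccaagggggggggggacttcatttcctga
Olig2: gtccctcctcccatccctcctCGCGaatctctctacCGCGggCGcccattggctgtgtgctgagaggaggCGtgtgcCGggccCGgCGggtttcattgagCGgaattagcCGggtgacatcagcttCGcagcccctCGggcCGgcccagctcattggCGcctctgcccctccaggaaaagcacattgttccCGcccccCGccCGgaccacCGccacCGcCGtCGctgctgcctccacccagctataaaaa
Nkx6-2: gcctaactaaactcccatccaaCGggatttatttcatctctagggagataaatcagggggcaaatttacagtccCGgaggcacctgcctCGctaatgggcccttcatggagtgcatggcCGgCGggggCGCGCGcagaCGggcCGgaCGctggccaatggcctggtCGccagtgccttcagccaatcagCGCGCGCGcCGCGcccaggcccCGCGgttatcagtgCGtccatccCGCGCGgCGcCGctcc
Cnp1: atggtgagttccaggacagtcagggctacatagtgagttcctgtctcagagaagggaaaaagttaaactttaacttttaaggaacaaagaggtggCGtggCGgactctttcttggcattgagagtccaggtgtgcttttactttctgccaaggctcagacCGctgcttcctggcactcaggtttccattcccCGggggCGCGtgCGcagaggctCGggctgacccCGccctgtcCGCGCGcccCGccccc

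These stretches are, in the same order, chr9:110656253-110656502 (plus strand), chr17:74489243-74489492 (plus), chr11:106084337-106084586 (plus), chr8:3621297-3621546 (minus), chr10:39369549-39369798 (plus), chr5:75152001-75152250 (plus), chr16:91225300-91225549 (plus), chr7:139582798-139583047 (minus) and chr11:100574689-100574938 (plus) of GRCm38.p6. They held 9, 10, 14, 18, 21, 4, 22, 26 and 13 CpG dinucleotides. For comparison, the median was 18 CpG in the same 250 bases over the 3039 member regions whose gene has exactly 1 such stretch in the RefSeq table, and 5 over all 22862 genes with 1. Pdgfra, at 4, lay below the median of all genes in this stretch, and Nkx6-2 was the most CpG-rich of the 9. Ccdc12 held the NK2 core AAGTG once, as TTAAGTG beginning 171 bases before the start. Xab2 held it 2 times, at 89 bases before the start on the gene's strand and at 135 on the other strand. Yipf4 held it once, at 105 on the other strand, overlapping the ETS match described below. The stretches of Map3k3, Fyn, Pdgfra, Olig2, Nkx6-2 and Cnp1 held no AAGTG on either strand, and the regions themselves are longer than these stretches. Olig2 had TATAAA beginning 8 bases before the RefSeq start. Map3k3 held CCAAT, the box read by NF-Y, 4 times.

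Nearly all of these promoters were called in OL. Of the 4696 regions 4422 (94.2%, exact 95% interval 93.5 to 94.8%) were called in OL, where 85.3% of all regions were. In OPC 1827 (38.9%, 37.5 to 40.3%) were called, close to the 38.6% of all regions. Intervals here cover counting error over regions only, not the spread between cultures. Both libraries called 1553 of them (33.1%, 31.7 to 34.4%), against 23.8% of all regions. A further 2869 (61.1%) were called in OL only, against 61.4% of all regions. The regions not called in OL are by the make-up of the table the OPC-only ones. They were few, with 274 regions (5.84%, 5.18 to 6.54%), against 14.7% of all regions.

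The low share of OPC-only calls was seen at both kinds of island promoter. It was 2.82% (1.80 to 4.20%) at the 816 island promoters with several gene starts. It was 15.5% (13.4 to 17.8%) at the 1102 promoters of 1 or more genes without an island, and 11.8% (10.1 to 13.8%) at the 1199 islands more than 1000 bp from any gene start. The intervals of the 4 classes do not overlap each other except for the last 2. Each region was called in at least 1 library, so the share called in OL is the rest of each class and no separate result. It was 97.2% for the several-gene islands, 84.5% for promoters without an island and 88.2% for islands away from starts.

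Signal was moderate and similar from promoter to promoter. In OPC the median average signal was 3.45, with quartiles at 2.47 and 4.46 and a maximum of 23.3. In OL the median was 5.30, the quartiles 4.38 and 6.66 and the maximum 34.6. The medians over all 37271 regions were 3.00 and 5.0, so these promoters lay a little above the middle of the table in each library. They were scarce among the strongest regions: 0 of the 100 highest regions in OPC and 3 of the 100 highest in OL were single-gene island promoters, and 17 and 31 of the highest 1000, although they make up 12.6% of the table. The best placed held rank 124 in OPC and rank 49 in OL. Strong regions were also few in the like classes. A mean signal over both libraries of 10 or more was found at 68 of the 4696 members and 18 of the 816 several-gene island promoters. It was found at 32 of the 1102 promoters without an island and 16 of the 1199 islands away from starts. Of all 32575 regions that are not members, 1553 had it. The highest point within a region was 1.94 times its average in OPC and 2.15 times in OL at the median, against 1.89 and 2.06 times at promoters without an island.

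**Figure D1:**
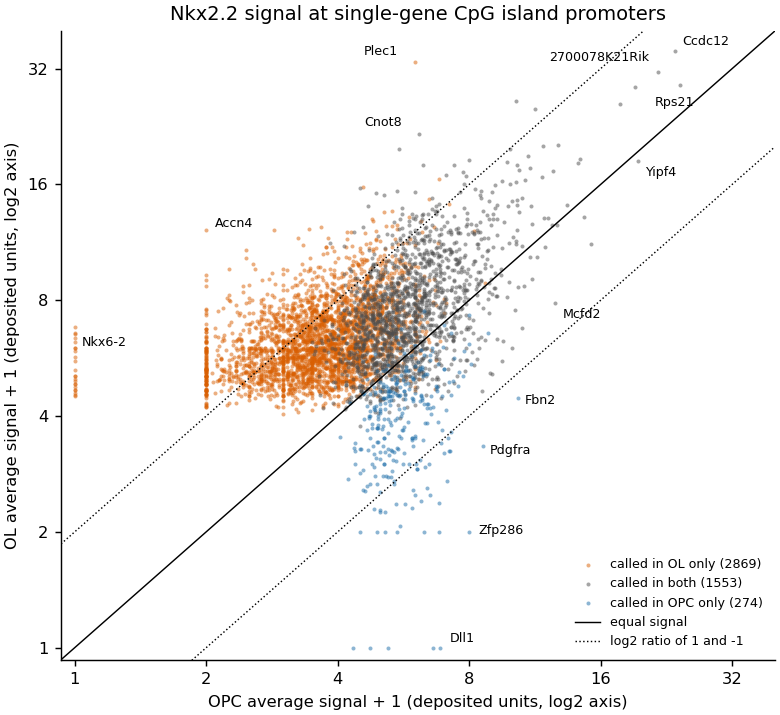
Average Nkx2.2 signal in OPC (horizontal) and OL (vertical) at each of the 4696 regions, in deposited units plus 1 on log2 axes; colour gives the library or libraries that called the region, and the dotted lines mark a log2 ratio of 1 and of -1. Most points lie above the line of equal signal and between the dotted lines, with 2869 regions in the OL-only set and 274 in the OPC-only set.

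The strongest promoters were strong in both libraries. Rps21, which encodes a protein of the small ribosomal subunit, had the highest OPC signal, 23.3, and 28.1 in OL. Ccdc12, whose protein is found in the spliceosome, had 22.7 in OPC and the highest OL signal, 34.6. The promoter listed as 2700078K21Rik (now Mob2, a kinase regulator) had 20.6 and 30.3. Map3k3, a MAP kinase kinase kinase, had 18.2 in OPC and 27.6 in OL, and Xab2, which takes part in splicing and transcription-coupled repair, had 16.7 and 24.8. The top 10 of the OPC library also held Yipf4 (18.5 in OPC, 17.4 in OL), the replication-dependent histone gene Hist2h4 (14.2, 10.2), Stt3a, a catalytic subunit of the oligosaccharyltransferase (13.7, 12.2), Sgol2, which guards centromeric cohesion (13.3, 17.6), and the RNA-binding protein gene Khsrp (13.2, 17.2). Yipf4, Hist2h4 and Stt3a were the 3 of these 10 with less signal in OL than in OPC. None of the 10 is a gene of the oligodendrocyte lists used below. Signal without the Nkx2.2 antibody at these promoters was not analysed here.

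The top 10 of the OL library shared 5 promoters with that of OPC, namely Ccdc12, 2700078K21Rik, Rps21, Map3k3 and Xab2. The others were Plec1 (now Plec), the plectin gene, with 5.0 in OPC and 32.2 in OL; Rps6kb2, a ribosomal S6 kinase gene (9.21, 25.3); Tmed2, of early secretory transport (10.3, 24.2); Cnot8, of the deadenylase complex (5.13, 20.7); and Gatad2a, a subunit of the NuRD complex (11.8, 19.2). Plec1 was called in OL only, although its OPC signal of 5.0 was above the median of the regions called in OPC as well as OL (4.68). It lay 938 bp upstream of the listed start, at chr15:76062396-76063097 of mm9, and Plec has several alternative first exons.

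The ratio of OL to OPC signal varied little among these promoters. The log2 ratio, taken as log2((OL + 1) / (OPC + 1)), had a median of 0.61, with quartiles at 0.28 and 0.92, and was above 0 in 4132 regions (88.0%) and below 0 in 559. Its standard deviation over regions was 0.54, against 1.05 over all regions, 0.46 at several-gene island promoters, 0.65 at islands away from gene starts and 0.83 at promoters without an island. A log2 ratio of 1 or more was found at 924 regions (19.7%, 18.5 to 20.8%), against 37.5% of all regions, and one of -1 or less at 41 (0.873%, 0.627 to 1.18%), against 7.03%. At promoters without an island 22.6% reached 1 or more and 5.35% (4.10 to 6.85%) reached -1 or less. At islands away from gene starts it was 20.2% and 2.42%, and at several-gene island promoters 16.5% and 0.245%. The low share at 1 or more was thus common to these classes. So the 2 libraries ranked these promoters in more nearly the same way than they ranked the table as a whole: Spearman's rho between OPC and OL signal was 0.353 over the 4696 regions and 0.033 over all 37271. Over regions called in both libraries it was 0.476 for the 1553 members and 0.394 for all 8879. The points of these correlations share 2 libraries, and rho is given as a description without a p-value.

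The narrow spread was also present among regions of like signal and length. Among regions with a mean signal over both libraries from 4 to 5, the standard deviation of the log2 ratio was 0.50 for the 1374 members and 0.98 for the 6436 other regions. From 5 to 7 it was 0.46 and 1.05, and from 7 to 10 it was 0.44 and 1.16. With length held to 600 to 800 bp and mean signal to 4 to 7, it was 0.45 over 927 members, 0.43 over 185 several-gene island promoters, 0.55 over 188 islands away from starts, 0.65 over 169 promoters without an island and 1.00 over all 3869 other regions. In that same cell 0 of the 927 members had a log2 ratio of -1 or less, against 5.71% of the other regions, and 13.5% had one of 1 or more, against 32.6%. The like classes were close to the members. At 1 or more were 11.9% of several-gene island promoters, 12.8% of islands away from starts and 13.0% of promoters without an island. At -1 or less were 0%, 1.06% and 1.78%, in the same order. Weak and short members varied more: the standard deviation was 0.80 at a mean signal under 3, and by length it was 0.68 over the shortest members (up to 572 bp), 0.49 over those of middle length and 0.42 over the longest (over 751 bp), in 3 sets of nearly equal number.

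**Figure D2:**
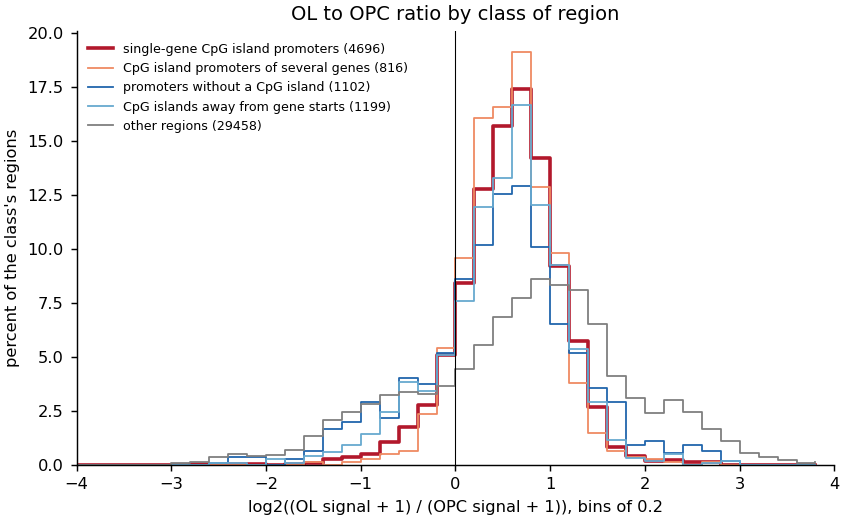
Percent of the regions of each class (vertical) by log2((OL + 1) / (OPC + 1)) of the average signal (horizontal, bins of 0.2). The single-gene island promoters (thick red line) peak between 0.6 and 0.8, as a narrow distribution with a standard deviation of 0.54, while the other regions of the table (grey) are broad, with a standard deviation of 1.14.

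The direction of the whole class depends on how the libraries are scaled. With the median log2 ratio of all regions set to 0, which takes 0.74 off each ratio, the median of these promoters was -0.12. With the median of the regions called in both libraries set to 0, which takes off 0.25, it was 0.37. As deposited, the median of 0.61 lay below the 0.74 of all regions. The spread of the class is the same whatever constant is taken off. Log2 ratios below are as deposited and are set beside 0.61, and counts below 0 are counts on the deposited scale.

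Among regions of more than the median mean signal (4.35), the largest log2 ratios were at Accn4 (now Asic4, an acid-sensing channel relative), with 1.00 in OPC and 11.2 in OL and a log2 ratio of 2.60, and at Plec1 (2.47). Cic, which encodes the repressor Capicua downstream of receptor tyrosine kinases, had 1.00 and 8.31 (2.22). Ncoa2, a coactivator of nuclear receptors, had 1.00 and 8.00 (2.17). Then came Rbm26 (1.46 in OPC, 9.83 in OL), the ubiquitin-conjugating enzyme gene Ube2e3 (1.00, 7.73), Spata6 (1.25, 8.67), the imprinted gene Mkrn3 (1.86, 11.2), Thumpd3 (1.47, 9.30) and Ruvbl1, an ATPase of chromatin remodelling complexes (1.56, 8.92). All 10 were called in OL only.

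At the other end stood Pdgfra, the gene of the receptor for PDGF-AA and the defining marker of OPCs. Its promoter region, chr5:75547849-75548653 of mm9, has its middle 65 bp upstream of the start and was called in OPC only. The average signal was 7.60 in OPC and 2.33 in OL, which gives a log2 ratio of -1.37, and the highest point in the region was 22 in OPC and 4 in OL. No other member above the median mean signal had a smaller log2 ratio. Fbn2, a fibrillin gene, followed with 9.33 and 3.44 (-1.22), then Rims1, of the presynaptic active zone (6.27, 2.64), E130310K16Rik (7.55, 3.64), Stk40 (8.00, 4.14), Cdgap (7.91, 4.17), 1110038F14Rik (8.50, 4.55), Ccdc5 (6.08, 3.15), the histone gene Hist1h3g (9.0, 5.0) and Mcfd2 (11.6, 6.84). The highest OPC signals among regions called in OPC only belonged to Fbn2, Wdr18 (7.83 in OPC, 5.58 in OL), Pdgfra, Cbfb, the partner of the Runx factors (7.09, 4.44), and Zfp286 (7.0, 1.00).

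Weaker regions are included in the 41 that reached -1 or less, all of which were called in OPC only. Several genes of growth factor, Notch and nuclear receptor signalling are among them; they were picked out after their values were seen. Dll1, a Notch ligand, had 5.87 in OPC and was listed at 0 in OL. Kit, a receptor tyrosine kinase like Pdgfra, had 5.40 and 1.60. Ccnd1, which encodes cyclin D1 and drives entry into the cell cycle, had 4.95 and 1.57. Rara and Rora, of the retinoic acid and ROR nuclear receptors, had 5.46 and 2.00, and 5.19 and 1.4. Nab2, a corepressor of the Egr factors, had 4.57 and 1.07, and the ephrin receptor gene Ephb1 had 4.90 and 1.30. The rest of the 41 include genes of other roles, such as the helicase gene Ddx5 (4.0, 1.27), the COPII coat gene Sec23b (3.85, 1.29) and the chaperone gene Dnajc10 (3.50, 1.00). In OL the highest point within these 41 regions ranged from 0, as at Dll1, to 6, at Fbn2 and Fign. Low OL values are what a choice by low ratio picks out, so they are no separate result.

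Besides Dll1, the regions at Hectd2, Tmem51, Nup210 and Prosc were listed at 0 in OL. In OPC 23 regions were listed at 0. These include 4 genes of developmental transcription factors or signal carriers, chosen after their values were seen: the homeobox genes Nkx6-2 (4.69 in OL) and Six4 (5.0), the proneural gene Neurog2 (3.67) and Smad9 (5.53), an effector of BMP signalling. No fold is given against a library listed at 0.

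Within the promoter, most regions sat on the start. The middle of the region was within 250 bp of the start in 3346 of 4696 (71.3%), and in 3781 (80.5%) the region covered the start. The middle lay 68.5 bp upstream at the median. Regions with their middle upstream (3110) had more OPC calls, 42.2% (40.4 to 43.9%), than the 1576 with their middle downstream, 32.5% (30.2 to 34.9%). Their median signal was also higher, at 3.62 against 3.10 in OPC and at 5.53 against 4.91 in OL. Their median log2 ratios were 0.60 and 0.65, so both libraries were lower downstream of the start by like amounts. OPC calls were least frequent from 250 to 500 bp downstream of the start, at 25.3% (20.0 to 31.2%) of 249 regions, where the median signal was 2.63 in OPC and 4.55 in OL.

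**Figure D3:**
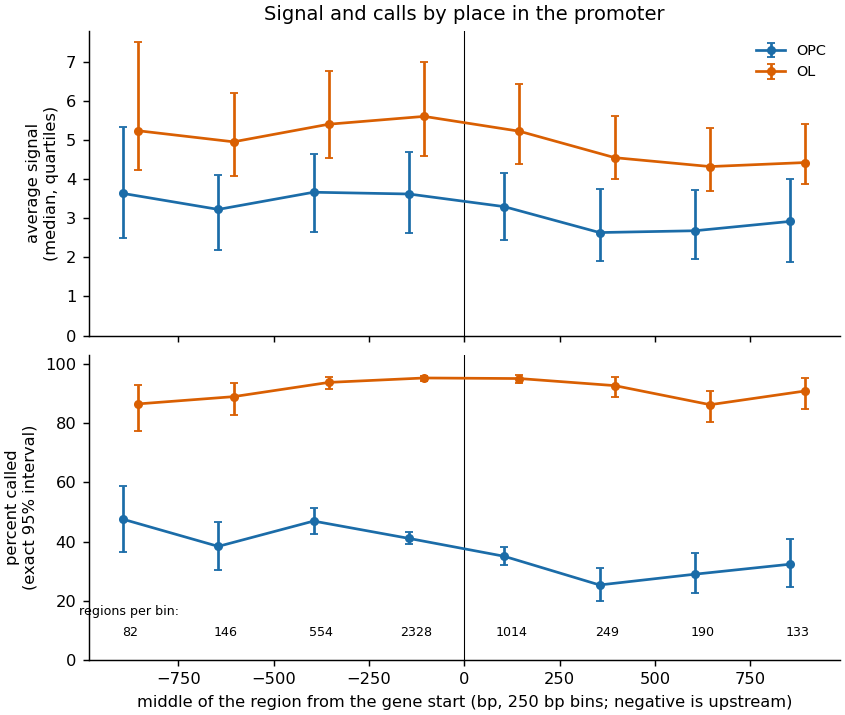
Top: median average signal (points) with quartiles (bars) in OPC and OL by the distance of the region's middle from the gene start, in 250 bp bins. Bottom: percent of regions called, with exact 95% intervals and the number of regions per bin; OPC calls go from 41.1% just upstream to 25.3% between 250 and 500 bp downstream, while OL calls stay between 86.3 and 95.4%.

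Longer regions were called in OPC more often, at 23.6% of the shortest, 36.8% of the middle and 56.4% of the longest of those 3 sets. Length is not independent of the calls, because a region called in both libraries joins at least 2 intervals: all 1517 regions of 2 intervals and all 36 of more were called in both, and the other 3143 have 1. The 5 regions just inside the 1000 bp limit were Rac1 (1.68 in OPC, 8.03 in OL), LOC545228 (2.07, 4.14), 6820431F20Rik (3.56, 7.19), Fut8 (3.72, 9.78) and Tsc22d2 (3.23, 4.23). The 5 just outside lay near LOC100043085 (5.36, 10.3), Srgap2 (1.67, 3.92), B430119L13Rik (4.91, 1.56), Fbxl19 (8.48, 11.0) and Grik5 (3.39, 4.74).

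Of the 4473 genes, 4253 had 1 region, 217 had 2 and 3 had 3 (Smarcd3, Slitrk5 and Fbn2). The log2 ratios of a gene's regions differed by 0.62 at the median over the 220 genes with more than 1, and by 1 or more in 52 of them, and in 51 they had opposite signs. At Smarcd3, a subunit gene of the SWI/SNF remodeller, the region 749 bp upstream had 1.00 in OPC and 4.58 in OL, the one at 69 bp downstream 2.33 and 3.89, and the one at 660 bp downstream 4.47 and 1.00. Of the 3, the one farthest into the gene had the highest OPC signal and the one farthest upstream the highest OL signal. At Fign the region 154 bp upstream had 1.00 and 5.27, and the one at 917 bp upstream 6.24 and 2.25. The pairs at Prosc (3.93 and 5.95 beside the start, 3.33 and 0 at 937 bp), Tmtc2 (3.14 and 6.42 at 203 bp upstream, 5.31 and 1.00 at 840 bp) and Nup210 (2.73 and 3.33 at 121 bp upstream, 3.75 and 0 at 487 bp downstream) were of the same form, with OL-only regions or regions called in both nearer the start and an OPC-only region farther out. These 5 genes were named because their regions differ most, so they do not stand for the rest of the 220.

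The oligodendrocyte lineage genes were read by list. For each list the counts stand beside those of the class and of the table: OPC calls were found at 38.9% of members and 38.6% of all regions, OL calls at 94.2% and 85.3%, and 11.9% and 22.5% had a log2 ratio below 0. Intervals of list medians are 95% order-statistic intervals over regions. Of 20 genes high in progenitors 11 had such a promoter region, with 12 regions, of which OPC called 7 (58.3%) and OL called 11 (91.7%). Their median log2 ratio was 0.18 (-0.24 to 0.92), an interval that holds the 0.61 of all members, and 5 of the 12 (41.7%) lay below 0. Beside Pdgfra these included Lhfpl3 (5.13 in OPC, 4.15 in OL), Olig2, the lineage-defining bHLH factor (6.88, 5.73), and the upstream region of Hes5, a Notch target (4.74, 4.41). These 3 were called in both libraries, with log2 ratios between -0.25 and -0.09. The proteoglycan gene Vcan was even, with 4.0 and 4.06. Bcan (4.05, 5.39) and Cacng4 (2.90, 4.15) had log2 ratios of 0.34 and 0.40, below the class median. Above it lay the second Hes5 region, 406 bp downstream of the start (2.07, 4.79), the bHLH antagonists Id2 (3.13, 7.06) and Id4 (3.18, 5.69), and the phosphatase gene Ptprz1 (1.64, 5.0). Pdgfra was the single gene of the list called in OPC and not in OL.

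Of 29 transcription factors of the lineage 16 had a region, 18 regions in all, with a median log2 ratio of 0.58, 9 called in OPC and 17 in OL. Zfp191 (now Zfp24), a zinc finger protein needed for myelination, had the most signal, 8.28 in OPC and 13.1 in OL. Olig2, Hes5 (upstream region) and Sox9 (3.67, 3.25) were among the 4 below 0. Zfp488, a corepressor partner of Olig2, had 4.70 and 5.53, Yy1 3.36 and 4.78, and the nuclear factor I genes Nfia and Nfib 3.33 and 3.91, and 3.35 and 3.86. Other factors with more signal in OL were Tcf7l2, an effector of Wnt signalling that appears at the onset of differentiation (2.80, 6.26), Tcf4 (4.0, 7.91), Sox8 (2.56, 4.91), E2f1 (2.27, 3.84), Prox1 (1.63, 4.82), Klf9, a gene induced by T3, and Nkx6-2. Klf9 had 2 regions, 3.79 and 9.30 at 219 bp upstream and 4.39 and 8.69 at 908 bp downstream, each called in both libraries. Nkx6-2, a homeodomain regulator of myelin genes, was listed at 0 in OPC and had 4.69 in OL.

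Of 20 genes of newly formed oligodendrocytes 6 had a region, with 8 regions, all called in OL and all with a log2 ratio above 0, as most members are. The median was 0.89, and its interval of 0.35 to 1.44 holds the 0.61 of all members. Rap2a had 5.71 in OPC and 12.4 in OL, at 840 bp upstream. Fyn had 4.47 and 9.79 at 409 bp upstream and 4.73 and 9.36 at 970 bp inside the gene. Mpzl1 had 2.31 and 8.00, Tcf7l2 2.80 and 6.26, Cnksr3 3.18 and 6.37 and, in a second region, 3.23 and 5.56, and Rras2 3.46 and 4.67. Fyn and Rap2a were called in both libraries and the rest in OL only. The median OL signal of the 8 regions was 7.18, against 5.30 for all members, and Rras2 lay below the latter.

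Of 33 myelin genes 6 had such a promoter region, while 22 had a region somewhere; the table holds called regions alone, so unbound island promoters are not counted. The median log2 ratio of the 6 was 1.04 (-0.60 to 1.36), an interval that holds the 0.61 of all members. A log2 ratio of 1 was reached by 4 of the 6, and by 19.7% of members and 37.5% of all regions. Cnp1, which encodes the myelin phosphodiesterase CNPase, had 1.75 in OPC and 4.62 in OL, Cldn11, of the tight junctions of myelin, 1.75 and 4.89, Tspan2 1.54 and 4.25, and Gpr37 1.33 and 5.0, each called in OL only. Qdpr had 3.44 and 5.87 and was called in both. Ugt8a, which makes the myelin lipid galactosylceramide, ran the other way with 4.67 and 2.75 and was called in OPC only. The OL signal of these 6 (median 4.75) was below the median of all members, and their OPC signal was low (median 1.75).

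Earlier studies, mostly in the pancreas, named a list of 12 target genes of Nkx2.2, and 3 of these were members. Pdgfra is one of them. The beta-cell factor Mafa had 1.93 in OPC and 4.65 in OL and was called in OL only.

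**Figure D4:**
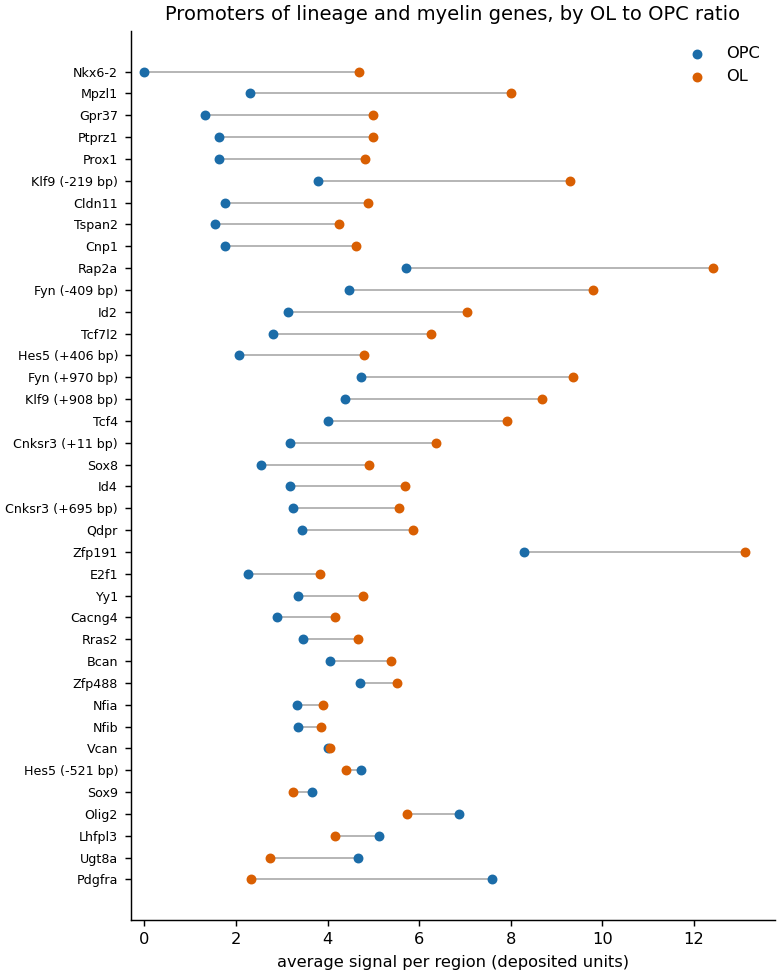
Average signal in OPC (blue) and OL (orange) at the named promoter regions of the progenitor, lineage factor, newly formed oligodendrocyte and myelin lists, in deposited units and ordered by log2 ratio. Pdgfra stands at the bottom with 7.60 and 2.33 and Nkx6-2 at the top with 0 and 4.69; the progenitor genes Lhfpl3 and Olig2 are near the bottom and Mpzl1 and Gpr37 near the top.

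The list of growth factor signalling genes holds feedback regulators and immediate early genes (Sprouty, Spred, dual-specificity phosphatases, Etv factors, Ier, Egr, Fos, Jun and Myc families). It gave 25 regions at 22 genes, with 14 called in OPC (56.0%) and 17 in OL (68.0%). The median log2 ratio was 0.34 (-0.08 to 0.52), or 0.12 with the highest signal in place of the average, and 9 of 25 (36.0%) lay below 0, against 11.9% of members and 22.5% of all regions. Spred2, an inhibitor of Ras to MAPK signalling, had 2 regions, both called in OPC only, with 4.91 and 4.06 at 134 bp upstream and 4.38 and 1.71 at 826 bp downstream. Etv5 had 5.93 and 3.50 in its farther region and 4.33 and 5.23 in its nearer one. Dusp1, a MAPK phosphatase, had 5.39 and 3.29 in its upstream region, against 2.17 and 4.14 in the one past the start. Fosl2 (6.88, 6.32), Spry1 (6.26, 6.39) and Ier5l (6.00, 5.88) had nearly equal signal. Ier2 (5.52, 8.37), Etv6 (5.22, 8.76) and Dusp5 (2.86, 6.88) had more signal in OL. Dusp11, which acts on RNA and not on MAP kinases, is among the 9 below 0 (4.52, 3.16). The culture medium of the 2 states differs in PDGF-AA, and what part that has in these values was not tested.

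Histone genes also spread widely. Of 28 regions at 27 genes 15 (53.6%) were called in OPC and 23 (82.1%) in OL, against 38.9% and 94.2% of members. The median log2 ratio was 0.29 (-0.05 to 0.67, which holds 0.61), or 0.47 with the highest signal in place of the average, and 10 (35.7%) lay below 0. Hist2h4 had 14.2 in OPC and 10.2 in OL, Hist1h3g 9.0 and 5.0, Hist1h4h 7.0 and 6.19 in its region near the start, and the linker histone gene Hist1h1d 5.91 and 2.40. In the other direction were the variant H2afz (5.26, 16.9), which has a log2 ratio of 1.52, Hist1h3e (6.40, 12.3) and Hist1h4b (3.64, 8.28). Replication-dependent histone genes have near-identical copies, so the placing of reads among them is uncertain. The cell cycle and replication list, by contrast, gave 54 regions with a median of 0.59 and 9 below 0. Its strongest were Pcna, the sliding clamp of replication (9.07, 10.7), Cdk5 (7.37, 10.2), Cenpf (4.50, 10.2) and Cdk4 (6.29, 7.63). Ccnd1 was the 1 region of that list at -1 or less.

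Genes of general cell upkeep lay at the middle of the class. The 50 cytosolic ribosomal protein promoters were all called in OL, and 22 were called in OPC; they had a median log2 ratio of 0.64 and 4 below 0. Next to Rps21, Rpl27 had 6.60 in OPC and 11.0 in OL and Rpl13a 7.55 and 9.44. Mitochondrial ribosome, respiration and import genes gave 86 regions with a median of 0.63. Mrps16 had 8.75 and 17.3, Cox7a2, of cytochrome oxidase, 6.36 and 17.0, Sdhb, of succinate dehydrogenase, 7.61 and 12.7, and Timm13 6.20 and 13.2. Splicing and mRNA processing genes gave 75 regions at 0.59, with Dhx36 (11.4, 11.5), Hnrpul1 (7.86, 13.4), Rbm5 (5.46, 13.6) and Rbm39 (7.71, 8.71) the strongest. Translation factors and tRNA synthetases gave 42 regions at 0.59, with Pars2 (9.23, 10.4), Eif2b2 (6.00, 9.75), Eif4g2 (4.36, 7.66) and Eif2s2 (3.76, 8.21). The proteasome and ubiquitin list, the second largest at 112 regions, had a median of 0.58, with Psmd1 (9.88, 18.0), Ube2f (9.25, 15.2), Psmf1 (9.58, 10.1) and Psmb5 (5.56, 12.8). Motor and membrane trafficking genes gave 96 regions at 0.63, with Kif22 (6.76, 15.0), Rab5c (6.26, 10.9), Sec23a (4.38, 11.7) and Vps37b (4.46, 11.5). The medians of these 6 lists thus lay within 0.58 to 0.64, around the 0.61 of all members.

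Zinc finger genes, the largest list with 130 regions, had a median of 0.64, with Zfp106 (10.8 in OPC, 12.1 in OL), Zfp191, Zfp719 (7.07, 11.6) and Zbtb40 (7.67, 10.6) the strongest. Homeobox genes gave 14 regions, all called in OL, where 94.2% of members were, with a median of 0.74 that was 0.36 over regions with a mean signal of 3 or more. Their strongest were Meis1 (5.16, 8.00), Six5 (3.82, 8.95), Pou3f2, a POU factor of the developing brain (5.75, 5.14), and Pbx3 (5.33, 4.96), and the last 2 were the homeobox regions below 0. Corepressors and deacetylases, through which Nkx2.2 can act, gave 16 regions at 15 genes with a median of 0.53 and 15 called in OL. The Groucho genes Tle1 and Tle4 had 4.44 and 6.79, and 3.87 and 5.98, Ctbp1 had 2.76 and 10.0, Hdac11 4.17 and 6.40 and Sin3a 2.54 and 7.75. Mbd2 was the 1 gene of this list with a ratio below 0, in the farther of its 2 regions (4.38, 1.67; nearer region 3.00, 6.38). Chromatin modifiers gave 49 regions at 40 genes with a median of 0.50 and 25 called in OPC (51.0%). Arid1a, of the SWI/SNF complex, had 5.56 and 13.8, Setd1a 6.13 and 11.7, Smarcd1 6.83 and 9.50, and the methyltransferase gene Mll1 9.35 and 7.67.

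The pathway lists came next. Of 35 Wnt pathway genes 20 had a region, 21 in all, with 5 called in OPC, 20 in OL and a median of 0.65. Its central effector Ctnnb1, the beta-catenin gene, had 3.31 in OPC and 10.1 in OL. The kinases of the destruction complex Gsk3a and Gsk3b had 6.56 and 9.84, and 4.86 and 7.86, the receptor gene Fzd2 4.38 and 7.44, and Csnk1a1 was the 1 region below 0 (5.95, 5.06). Of 44 Notch, BMP and hedgehog genes 15 had a region, with 16 regions and a median of 0.66. Among the transducers and targets, Gli2 had 3.79 and 6.17, Hey2 3.70 and 6.43, Smad4 2.95 and 4.95, Ptch1, the hedgehog receptor, 2.08 and 5.58 and Notch2 2.38 and 5.95, while the ligand gene Dll1 was the 1 region past -1. Of 26 cholesterol synthesis genes 13 had a region, with 14 regions, all called in OL, and a median of 0.40. Insig1 had 6.43 and 9.27, Fdft1 4.93 and 8.19, Scap 5.33 and 7.25 and Sqle 4.14 and 7.21. None of the 14 reached a log2 ratio of 1, and the exact 95% interval of 0 to 23.2% holds the 19.7% of members. Over all regions it was 37.5%.

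**Figure D5:**
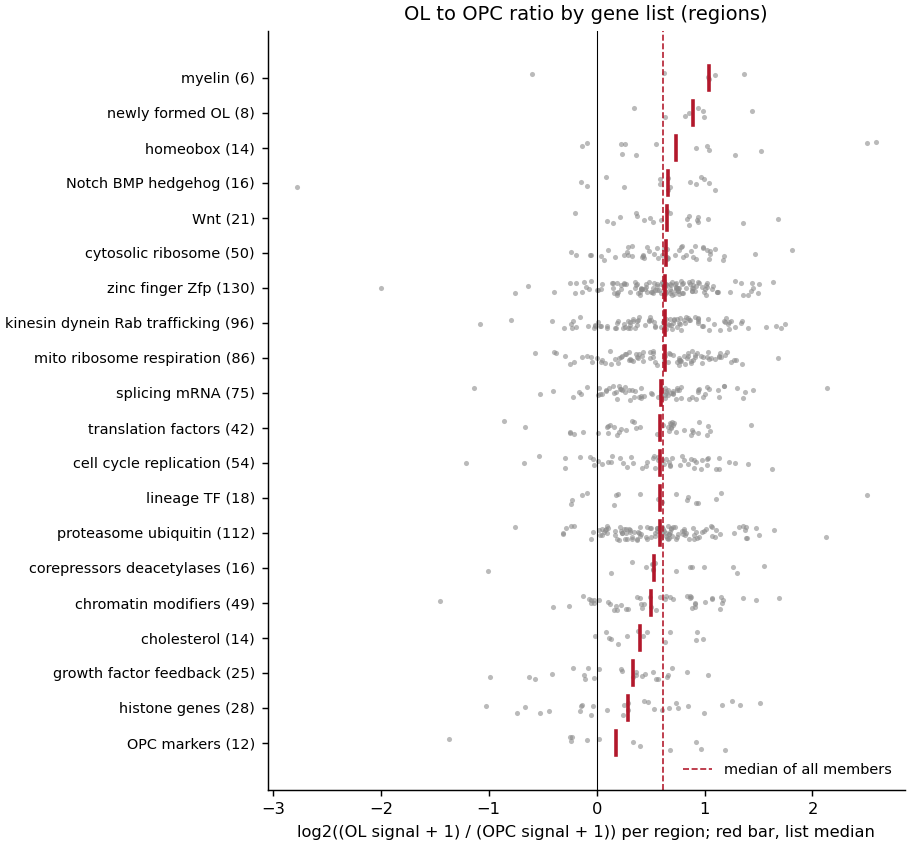
Log2((OL + 1) / (OPC + 1)) of the average signal at each promoter region (grey points), by gene list with the number of regions in brackets; red bars are list medians and the dashed line is the median of all 4696 regions, 0.61. Among the lists with 6 or more regions, which are drawn, the progenitor, histone and growth factor lists have the lowest medians (0.18, 0.29 and 0.34) and the newly formed oligodendrocyte and myelin lists the highest (0.89 and 1.04).

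Markers of other brain cells were read in the same way. Of 12 neuronal genes Tubb3 was the 1 member (2.46 in OPC, 4.85 in OL), while 4 had a region somewhere in the table. Of 10 astrocyte genes Glul (2.2, 4.62) and Sox9 were members and 9 had a region somewhere, and of 11 microglial genes none was a member and 3 had a region. The astrocyte share of members was thus near that of the myelin list, where 6 of 33 genes were members and 22 had a region. A region at a gene does not say that the gene is expressed. The 3 microRNA genes that were members by the table's names were Mirn193 (2.88, 5.19), Mirn124a-3 (4.09, 2.00) and Mirn375, listed at 0 in OPC and at 3.85 in OL.

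Some of the genes with such a promoter also had Nkx2.2 regions inside the gene. Of the 4473 genes 1760 (39.3%) had at least 1 region in the gene more than 1000 bp from the start, 2 at the median and 28 at most. The same share was not computed for other genes, so it is not a trait of this class. In these genes the promoter had a median log2 ratio of 0.63 and the regions in the gene 0.91 (the median over genes of each gene's median ratio), and the latter was higher in 1088 genes (61.8%). Regions outside every promoter and island class had a median of 0.82 over the whole table, also above the 0.63 of these promoters. OPC signal was 3.36 at the promoter and 2.64 inside the gene at the median, and OL signal 5.27 and 5.22. The promoter was the highest of the gene's regions in 744 genes (42.3%) in OPC and 606 (34.4%) in OL. Promoter and gene body could run apart. At Pdgfra the 3 regions inside the gene had median signals of 4.31 (OPC) and 5.06 (OL). The median of their 3 log2 ratios was 1.13, which is not the ratio of those 2 medians, against -1.37 at the promoter. At Ugt8a the median of the log2 ratios of the 5 inner regions was 1.10, against -0.60 at the promoter. Cnp1 was the reverse, with 4.89 and 1.60 at its inner region (-1.18) and 1.03 at the promoter, and Prox1 had -0.59 inside and 1.15 at the promoter. At Tcf7l2 both were above 0, with a median of 1.23 over 12 inner regions and 0.94 at the promoter.

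Chromosomes were alike. The members made up between 9.49% (chromosome 12) and 16.0% (chromosome 7) of a chromosome's regions, and the median log2 ratio lay between 0.57 and 0.70 on all 20. The X chromosome was highest, at 0.70 over 87 regions, and had the lowest share called in OL, 83.9%, and a median signal of 2.42 in OPC and 4.27 in OL against 3.46 and 5.32 on the autosomes. The sex of the mice is not given in the sources used here.

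Last, the promoter sequences were read for what the regions share. RefSeq stretches of 250 bases before to 50 after the start were used for the 3039 regions whose gene has exactly 1. Their CpG content, observed over expected, was 0.82 at the median against 0.37 over all 22862 genes, and GC content 62.3% against 52.3%, which restates the rule that chose them. Within the class, signal went little with it: Spearman's rho of GC content was -0.183 with OPC signal, -0.095 with OL signal and 0.105 with the log2 ratio. Split in 3 equal sets by mean signal, the highest set had a median GC content of 61.3%, and the lowest 64.3%.

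Short motifs were counted on both strands of these stretches. The NK2 core AAGTG was in 41.8% of them, against 46.7% of all genes' stretches and 49.4% of the 555 at promoters without an island. The extended match TNAAGTG was in 7.67%, against 11.5% and 13.5%. Neither string holds a CpG, and how far these shares follow from the base composition of island promoters was not tested. Stretches with the core had nearly the same signal as those without, 3.58 and 3.42 in OPC and 5.42 and 5.29 in OL at the median, and were called in OPC in 42.5% and 38.2%. The core was in 38.6% of the lowest of the 3 sets by mean signal, 43.3% of the middle and 43.4% of the highest one. The core overlaps the ETS motif, since an ETS match that ends in a further G holds both, and 175 of the 1643 AAGTG matches (10.7%) lay in this way inside an extended ETS match.

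Several motifs were more common in members than in all genes. GGGCGG, the GC box, was in 73.1% of members and 35.2% of all genes, the ETS motif CCGGAAGT in 10.6% and 3.95%, GCGCATGC, a shortened NRF1 site, in 7.47% and 2.77%, TGACGTCA, the cAMP response element, in 3.52% and 1.85%, and AAGATGGCG, a shortened YY1 site, in 4.41% and 1.55%. Each of these motifs holds a CpG, and the rule chose CpG-rich promoters, so these contrasts are not independent of that rule. TATAAA, which holds no CpG, was in 5.69% and 14.8%. CCAAT was in 42.2% of members and 38.2% of all genes. At promoters without an island the GC box was in 41.8%, the ETS motif in 5.59%, the NRF1 site in 1.62%, the YY1 site in 2.16% and TATAAA in 10.1%. There the cAMP response element, at 3.42%, was about as common as in members, and CCAAT, at 45.4%, was more common. From the lowest to the highest set by mean signal the ETS motif went from 7.60% through 10.6% to 13.6%, and CCAAT from 36.8% through 41.0% to 48.8%, while the GC box went from 75.4% to 71.3%. The ratio of OL to OPC signal was alike with and without each of them, for example 0.57 and 0.61 for the ETS motif. Yipf4, with an ETS match 104 bases before its start and 3 CCAAT boxes, and Map3k3, with 4 CCAAT boxes, are in the highest set. The ETS match of Yipf4 overlaps its AAGTG, so these are not separate sites. A match is a string of letters and not a bound site, and many of these regions reach beyond the stretch read here.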

How the data were processed

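Nkx2.2 ChIP-seq of 1 OPC and 1 OL library was analysed; the input library has no column in the deposited table and was not analysed here. The submitters' processing notes name BWA, MACS 1.4.2 and mm9. The authors joined called intervals into regions and deposited the average and highest signal of each library per region, per the file headers. The calling threshold is not given in the sources used here, nor is any scaling between libraries, and depth is unknown, since signal holds no read counts.

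Members were taken with Python 3.11.15 and pandas 2.3.3 from the deposited island count, gene names and distances, which run from the region's middle (at 220 of 220 genes with several regions the distances differ as the middles do, within 1 bp). The log2 ratio used a pseudocount of 1 and no filter on low signal, so all 4696 members were kept. Shares carry exact Clopper-Pearson 95% intervals. With 1 library per state there is no residual spread, so no test was run.

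The members, the 25 gene lists and the motifs were chosen with earlier results of these data known. Named genes were the 10 highest regions per library, the 10 largest and 10 smallest log2 ratios above the median mean signal, the 5 highest called in 1 library only, all lineage, myelin and earlier target genes, the 4 strongest of each other list, the 5 genes whose regions differ most, and the 5 regions on each side of the distance limit. Others were chosen after their values were seen, and some genes that the rule names are not reported here. Of 4473 gene names 4352 matched a symbol or synonym of the RefSeq table of GRCm38.p6 and 3538 a promoter stretch, which was used for sequence only. Coordinates of regions are printed as deposited, and whether starts count from 0 or 1 is not stated.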

Additional observations from a re-analysis of the deposited data

How the results depend on the processing

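The median log2 ratio reversed to -0.12 with all regions set to 0 (1.30% at 1 or more, 5.49% at -1 or less) and was 0.37 with shared regions set to 0 (8.45%, 1.60%). It was 0.68 with a pseudocount of 0.5 (27.0% at 1 or more) and 0.52 with 2 (9.56%, and 0.426% at -1 or less), 0.79 for the highest signal in place of the average (40.7%, 1.70%; median signal 7.0 in OPC, 11.0 in OL), and 0.58 over regions with a mean signal of 3 or more (17.0%, 0.605%). Within 500 bp of the start, 95.1% were called in OL and 34.7% in both, the OL median was 5.40 and 0.578% reached -1 or less. Regions with 1 gene in all had 37.0% called in OPC and 31.4% in both, medians of 3.33 and 5.23 and a median log2 ratio of 0.63. Regions of 1 kb or shorter had 36.1% called in OPC, 29.6% in both, medians of 3.39 and 5.25, and 20.9% at 1 or more. Counting a call only at an average signal of 4 left 29.3% in OPC, 84.6% in OL and 23.8% in both.

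Of 59 list medians recomputed with the highest signal, a pseudocount of 0.5 or a mean signal of 3 or more, 0 changed sign and 4 moved by more than their interval, all with the highest signal. The myelin list was not recomputed at a mean signal of 3 or more, where it held fewer than 6 regions. Rescaling shifts every list alike: 1 of 20 list medians fell below 0 with shared regions set to 0, and 18 with all regions set to 0. No paired analysis was possible because each state has 1 library. Leaving out a replicate was not run for the same reason, and the spread between cultures is unknown. The unknown depth limits the weakest regions most.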
